A study of Mus musculus with 6 samples.

Results

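The genes described here are 2 circulating hormones of mitochondrial stress, GDF15 and FGF21, the Klotho co-receptors Kl and Klb, the FGF receptors Fgfr1 to Fgfr4 and the kidney ligands Fgf1 and Fgf9. They were chosen by name, and all 10 were found among the 32285 genes of the count table through their Ensembl identifiers. RNA-seq of whole kidney came from 6 female mice of 100 weeks, and all of them, controls included, bore a TrnE mutation (TrnE encodes the mitochondrial tRNA for glutamate). The high-load group was 3 kidneys, called high-load 1 to 3, of mice labelled with a mutation load of 75%, 75% and 80%. Load is the share of mitochondrial DNA copies with the mutation. The control group was 3 kidneys, called control 1 to 3, of mice labelled with a load of 10%, 5% and 15%. The controls were thus low in the mutation and not free of it. No strain or nuclear genotype is given by the labels. The comparison asks how kidney transcripts vary with the load at 1 age and in 1 sex.

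GDF15 is a hormone of the TGF-beta superfamily that stressed cells release, and it acts on the hindbrain receptor GFRAL, which signals through RET. FGF21 is made mainly by the liver and signals through FGF receptors joined to beta-Klotho, the product of Klb. Alpha-Klotho, the product of Kl, is most abundant in the kidney, where with FGF receptors it forms the receptor for FGF23, the bone hormone that lowers phosphate reabsorption and active vitamin D. FGF1 and FGF9 act locally and bind receptors together with heparan sulfate. Raised GDF15 and FGF21 in blood are known markers of mitochondrial disease in people.

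Promoters are shown for the hormones and for Fgfr2, because Gdf15 and Fgfr2 have the smallest p of the 10 genes and Fgf21, the other hormone, was almost without reads. RefSeq promoter windows of GRCm38.p6 were used for 8 of the 10 genes, all but Fgf1 and Fgfr1. These windows ran from 250 bases before to 50 after the transcript start. Each was searched on both strands for TGATGNAA, the core of the composite element that C/EBP and ATF factors such as ATF4 share, for the CRE palindrome TGACGTCA, and for the E-box CACGTG. These 3 motifs are spelled so that none contains another, and capitals mark the matches. The Gdf15 windows (chr8:70632407-70632706 and chr8:70632046-70632345), the Fgf21 window (chr7:45615441-45615740) and the Fgfr2 window (chr7:130266759-130267058) all lie on the minus strand and read 5′ to 3′:
Gdf15, first start: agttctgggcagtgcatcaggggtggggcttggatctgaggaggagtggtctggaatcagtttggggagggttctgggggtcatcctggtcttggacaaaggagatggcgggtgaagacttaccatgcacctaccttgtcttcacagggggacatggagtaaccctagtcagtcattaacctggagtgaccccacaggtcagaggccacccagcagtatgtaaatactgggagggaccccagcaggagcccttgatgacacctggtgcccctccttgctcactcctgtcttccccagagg
Gdf15, second start: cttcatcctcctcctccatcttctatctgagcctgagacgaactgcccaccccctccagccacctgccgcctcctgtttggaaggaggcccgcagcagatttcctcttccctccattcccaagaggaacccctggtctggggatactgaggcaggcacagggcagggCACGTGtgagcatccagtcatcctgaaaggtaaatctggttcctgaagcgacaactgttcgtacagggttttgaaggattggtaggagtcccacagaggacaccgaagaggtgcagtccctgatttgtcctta
Fgf21: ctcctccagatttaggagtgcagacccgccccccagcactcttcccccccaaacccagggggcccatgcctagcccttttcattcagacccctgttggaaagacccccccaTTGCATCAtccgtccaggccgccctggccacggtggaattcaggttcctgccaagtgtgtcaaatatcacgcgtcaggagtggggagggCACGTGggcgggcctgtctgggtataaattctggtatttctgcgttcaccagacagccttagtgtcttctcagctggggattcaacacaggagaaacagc
Fgfr2: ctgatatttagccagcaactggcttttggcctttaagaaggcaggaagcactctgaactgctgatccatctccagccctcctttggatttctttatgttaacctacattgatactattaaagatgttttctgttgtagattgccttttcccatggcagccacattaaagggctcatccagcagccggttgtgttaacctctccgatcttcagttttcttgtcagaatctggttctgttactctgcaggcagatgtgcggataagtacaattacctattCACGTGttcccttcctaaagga
Fgf21 held a match to TGATGNAA, read on the opposite strand, whose first printed base lies 139 bases before the start. It also held an E-box that begins 50 bases before the start. Across all windows 3.97% of 32851 promoters held TGATGNAA, 1.79% held TGACGTCA and 7.15% held CACGTG. The Gdf15 windows held neither of the first 2 motifs, and the second had an E-box that begins 83 bases before its start. Fgfr2 had an E-box that begins at base 29 of its transcript. The windows of Fgfr3, Klb, Kl, Fgfr4 and Fgf9 held no match to the 3 motifs.

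Total counts per kidney ranged from 17449270 to 18865997, and 15955 genes passed the filter on low counts. Markers of tubule, glomerulus and vessel were present in each kidney. High-load 1 stood apart, with a summed proximal tubule level of 3969 CPM, against 11099 and 7845 CPM in high-load 2 and 3 and 13499 to 15785 CPM in controls. It also had the highest summed urothelial level (220.1 CPM) and the highest lymphocyte level (221 CPM). Control 2 had a summed hepatocyte marker level of 1191 CPM, against 129 to 284 CPM in the other 5 kidneys. A single gene of that list supplied 1039.6 CPM of the control 2 sum. Fold changes of the 8 tested genes were also computed without each kidney. CPM is the library-scaled count (TMM), means stand ± SD over the 3 kidneys of a group, and a fold change divides the high-load by the control level. In whole tissue, fewer cells of a type and less RNA per cell cannot be told apart.

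In high-load kidneys Gdf15 averaged 7.86 times its control level, Fgfr2 stood 1.72 times higher, and Fgf1, Fgfr3 and Fgfr4 lay below their control means. Fgf21 was almost undetected in both groups, and Kl lay below each control in 2 of the 3 high-load kidneys. None of the 8 genes that passed the filter passed edgeR's quasi-likelihood test after Benjamini-Hochberg adjustment (threshold 0.05), against 0.0188% of all 15955 genes. At an adjusted threshold of 0.1, 2 of them were higher (Gdf15 and Fgfr2, against 2.59% of all genes), 0 were lower (0.608% of all) and 2 differed in either direction (3.2% of all). At an unadjusted p under 0.05, 2 were higher (14.0% of all tested genes) and 3 were lower (10.2% of all), so 5 of 8 differed in either direction (24.2% of all). DESeq2 called 5 of the 8 at its own adjusted threshold of 0.05, against 10.2% of the 16408 genes it tested. Gdf15 and Fgfr2 were the 2 higher ones (6.47% of all), and Fgfr3, Fgfr4 and Fgf1 were the 3 lower ones (3.77% of all). With limma-voom 0 of the 8 were called, as were 0.0% of all genes. The groups did not overlap for 2 higher genes, Gdf15 and Fgfr2 (17.1% of all tested genes), and for 2 lower genes, Fgf1 and Fgfr4 (15.8% of all), 4 of 8 in either direction (33.0% of all).

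**Figure D1:**
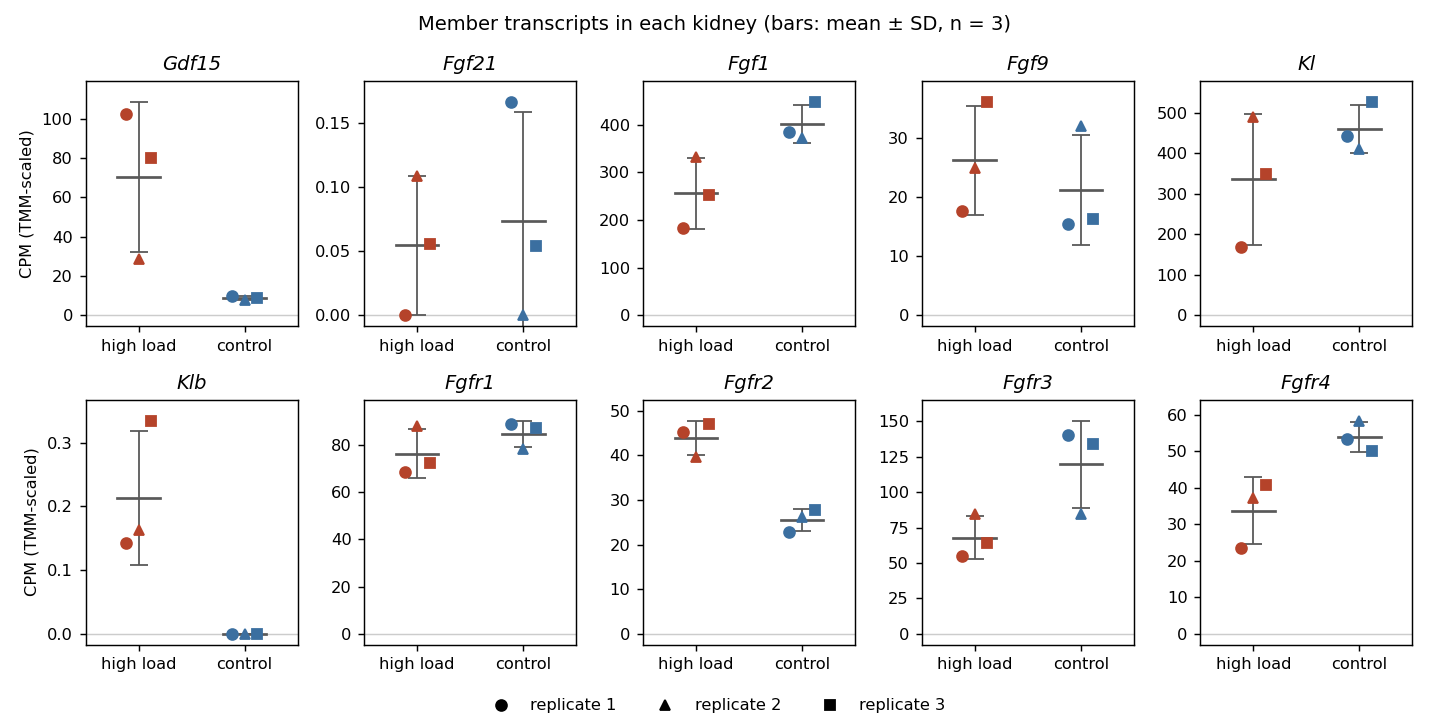
TMM-scaled CPM of each of the 10 transcripts in high-load (left, red) and control (right, blue) kidneys, with 1 symbol shape per replicate number and bars for the mean ± SD. Gdf15 and Fgfr2 were higher in each high-load kidney than in each control, Fgf1 and Fgfr4 were lower, and Fgf21 and Klb stayed below 1 CPM throughout.

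Gdf15 (ENSMUSG00000038508, chromosome 8, 70629393 to 70632456, minus strand, mm10) stood at 103, 28.5 and 80.1 CPM in high-load 1 to 3, against 9.98, 7.90 and 8.93 CPM in controls 1 to 3. The lowest high-load kidney lay above the highest control, and the spread was far wider at high load, where the SD was 37.9 CPM against 1.04 CPM in controls. The 2 kidneys of mice with a load of 75% were the highest and the lowest of their group. The log2 fold change was 2.98 (SE 0.46) with an edgeR adjusted p of 0.0936, and it passed the wider threshold of 0.1 but not that of 0.05. Without high-load 2, the kidney with the least Gdf15, the log2 fold change was 3.35 and the adjusted p was 0.00475. Without high-load 1 the values were 2.60 and 0.134.

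Injury markers and macrophage and dendritic cell markers moved with Gdf15. The summed level of 12 tubule injury markers was 12308, 5980.1 and 11428 CPM in high-load 1 to 3 and 4153, 3630.3 and 2832 CPM in controls. That of 9 macrophage and dendritic cell markers was 1470.4, 769 and 1019.8 CPM at high load and 565, 454 and 571 CPM in controls. Both sums put the high-load kidneys in the order in which Gdf15 put them, and their part in the Gdf15 level was not tested. T and B lymphocyte markers did not keep that order. Their sum was 221, 63.7 and 33.7 CPM in high-load 1 to 3 and 21.1 to 39.9 CPM in controls. In high-load 1 a single gene supplied 7684 CPM of the injury sum of 12308 CPM, so that sum leans on an abundant transcript. Among injury genes 10 of 12, and among macrophage and dendritic genes 8 of 9, were higher with groups that do not overlap, against 17.1% of all tested genes. Over the 6 kidneys, the 3 genes with the pattern nearest to Gdf15 on the centred log2 scale were Ctnnd2, which encodes delta-catenin, the scavenger receptor gene Scara3 and Sox9, a transcription factor of tubule repair. Their root mean square differences from Gdf15 were 0.174, 0.2299 and 0.238 log2 units. Ctnnd2 was at 11.1, 3.26 and 7.90 CPM in high-load kidneys and between 0.668 and 1.14 CPM in controls.

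**Figure D2:**
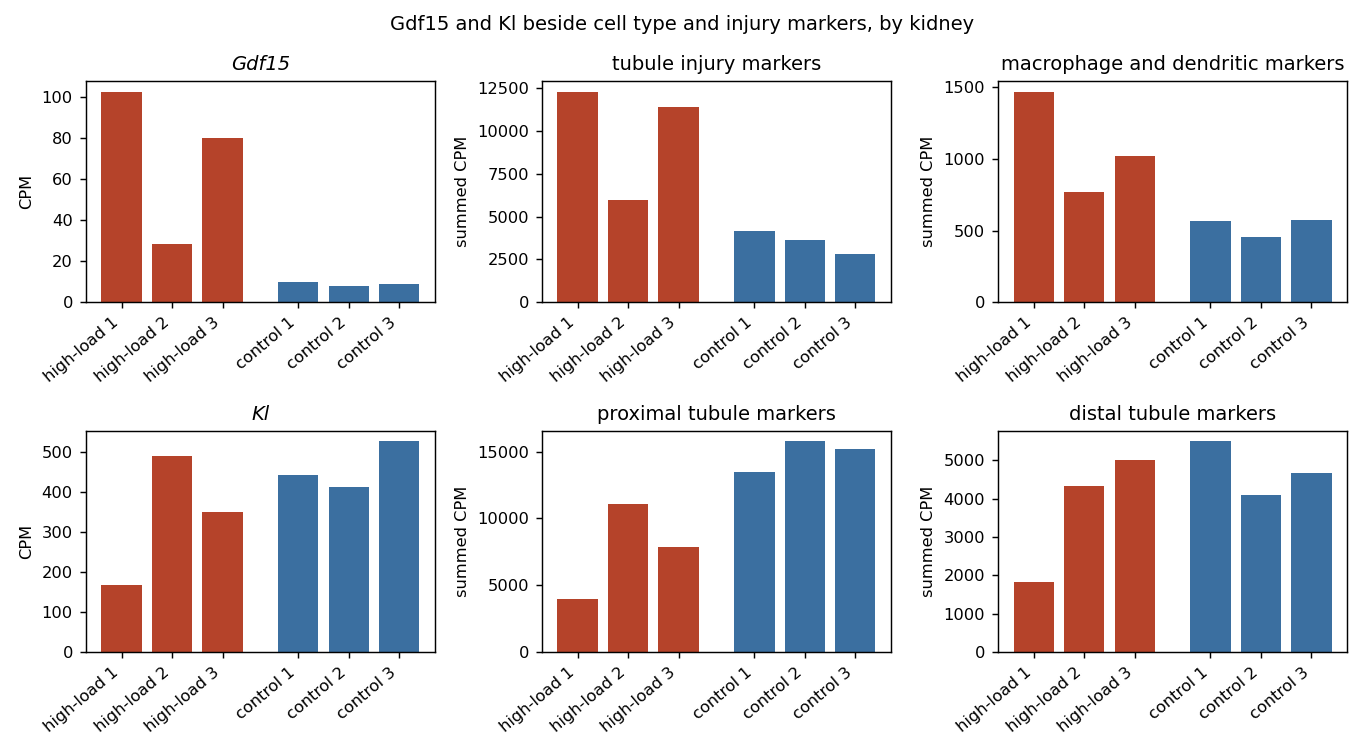
Bars show the CPM of Gdf15 and Kl and the summed CPM of 4 marker lists in each kidney, high-load kidneys in red on the left and controls in blue. Gdf15, injury and macrophage levels were highest in high-load 1 and lowest of their group in high-load 2, while Kl was lowest in high-load 1 at 168 CPM, where the proximal and distal tubule sums were also lowest.

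Fgf21 (ENSMUSG00000030827, chromosome 7, 45613886 to 45615490, minus strand) had 0, 2 and 1 reads in high-load 1 to 3, against 3, 0 and 1 reads in controls 1 to 3. The sums were 3 reads at high load and 4 reads in controls, and 95% exact Poisson intervals of 0.619 to 8.77 and 1.09 to 10.2 reads overlap widely. No difference was detectable at this depth, and the gene was not tested because it failed the filter. Its promoter is the window above with a TGATGNAA match, while the Gdf15 windows have none.

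The transcription factors known to act on these 2 hormone genes included the 1 gene of the 8 lists that passed the test. Atf5, a stress response factor, was at 78.3, 66.1 and 96.0 CPM in high-load kidneys and at 14.0, 11.2 and 14.6 CPM in controls, and it rose with a log2 fold change of 2.59 (SE 0.17, edgeR adjusted p 0.0218). Of the 14 factors, 1 was higher and 0 were lower at that threshold, against 0.0188% and 0.0% of all tested genes. A further count at 0.1 is read against 2.59% of all genes higher and 0.608% lower, and there 5 were higher (Atf5, Ddit3, Atf3, Trp53 and Egr1) and 1 was lower (Ppara). Exons of Atf5 overlap 82 bases of Nup62 and of Il4i1 on the opposite strand. The Atf5 call was lost, and the count fell to 0, without high-load 1 or without any 1 of the controls. Ddit3, which encodes CHOP, was at 32.6 ± 5.73 CPM at high load and 13.4 ± 1.63 CPM in controls (adjusted p 0.0772). Atf3, another stress factor, was at 15.9 ± 4.35 and 3.77 ± 1.44 CPM in high-load and control kidneys (adjusted p 0.0936). Ppara, a nuclear receptor of fatty acid oxidation that induces Fgf21 in liver, was at 14.0 ± 3.33 CPM at high load and 33.8 ± 9.98 CPM in controls, with groups that do not overlap (adjusted p 0.0967). Trp53, Egr1 and Ppara were named after their values were seen. The ranks of high-load kidneys differed between genes: Atf5 and Ddit3 were highest in high-load 3, whereas Gdf15 and Atf3 were highest in high-load 1. The median log2 fold change of the list was 0.28, against 0.01 for all tested genes.

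GFRAL transcript was not seen in any kidney (0 reads), and its partner Ret had 47 reads at high load and 53 reads in controls. Furin and the listed Pcsk genes, which encode convertases that can cut hormone precursors, had lower means at high load. Pcsk6 was at 28.3, 31.1 and 20.8 CPM in high-load kidneys and at 50.5, 68.9 and 53.4 CPM in controls (0.464 times the control level, edgeR adjusted p 0.0936). Furin was at 150.3 ± 12.9 CPM at high load and 198 ± 7.62 CPM in controls (adjusted p 0.115). Mmp14, a matrix protease gene of the list and not one of these convertases, went the other way. It was at 52.0 ± 11.8 CPM at high load and 24.8 ± 2.96 CPM in controls (adjusted p 0.0936). Of the 6 tested genes in this list of 7, 0 passed in either direction at 0.05, and 1 was higher and 3 were lower at an unadjusted p under 0.05 (14.0% and 10.2% of all tested genes). The further gene below that unadjusted threshold, named after its values were seen, was Pcsk5, at 22.9 ± 5.84 CPM at high load and 34.1 ± 1.13 CPM in controls. Groups did not overlap for these 4 genes, 1 higher and 3 lower, against 17.1% higher and 15.8% lower among all tested genes.

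Kl (ENSMUSG00000058488, chromosome 5, 150952607 to 150993817, plus strand) was at 168, 490.1 and 349.7 CPM in high-load 1 to 3 and at 443, 411 and 526 CPM in controls 1 to 3. High-load 2 lay inside the control range, high-load 1 and high-load 3 lay below the lowest control, high-load 1 by far the most, and the groups overlap. The log2 fold change was -0.45 (SE 0.36, edgeR adjusted p 0.473), and -0.13 without high-load 1. The summed level of 8 markers of the distal convoluted and connecting tubule, where Klotho is known to be abundant, was 1826, 4334 and 5019.7 CPM in high-load kidneys and 5499, 4108 and 4660.3 CPM in controls. Of those 8 markers 3 were lower and 1 was higher with groups that do not overlap, against 15.8% lower and 17.1% higher among all tested genes. The part of cell composition in the low Kl of high-load 1 was not tested. The genes nearest to Kl in pattern were Sod3, an extracellular superoxide dismutase, Isoc2b and Cgref1, at root mean square differences of 0.0688, 0.0854 and 0.102 log2 units. Sod3 was at 146, 427 and 327 CPM in high-load kidneys and at 415, 409.7 and 473 CPM in controls.

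Klb (ENSMUSG00000029195, chromosome 5, 65348314 to 65384007, plus strand) had 3, 3 and 6 reads in high-load 1 to 3 and 0 reads in each control. The 12 reads at high load have a 95% exact Poisson interval of 6.20 to 21.0 reads. With 3 reads over the group taken as the limit, 0 reads in the control group stand for 0.0568 CPM. The pooled high-load level of 0.209 CPM was 3.67 times that limit, a ratio that leaves out the counting error of the 12 reads. The exact 95% intervals reach down to 0.108 CPM at high load and up to 0.0698 CPM in controls. It failed the filter, and in the fit with no filter its unadjusted p was 0.00756 and its edgeR adjusted p was 0.138. Klb is abundant in fat, and the summed level of 6 adipocyte markers was 37.3, 16.4 and 0.891 CPM in high-load 1 to 3, against 0.851 to 1.85 CPM in controls. High-load 3, with the most Klb reads, was within the control range of adipocyte markers, and the part of fat in these reads was not tested. Poisson intervals and limits of this kind cover counting error only.

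Among genes that release or relate to Klotho, Adam17 was higher and Timp3 lower without overlap between the groups, and neither passed the edgeR test. That is 1 higher and 1 lower of 5, against 17.1% higher and 15.8% lower among all tested genes. Adam17, a sheddase that frees the Klotho ectodomain, was at 52.1, 46.6 and 53.9 CPM in high-load kidneys and at 41.3, 37.6 and 40.1 CPM in controls (log2 fold change 0.36, SE 0.09, edgeR adjusted p 0.111). DESeq2 called Adam17. Its fellow sheddase Adam10 was at 102 ± 13.2 CPM at high load and 86.3 ± 6.63 CPM in controls, with groups that overlap. Timp3, an inhibitor of these proteases, was at 443, 739 and 611 CPM in high-load kidneys and at 783, 799 and 795 CPM in controls (adjusted p 0.270). None of the 5 listed genes passed at 0.05, and 1 of 5 was higher at an unadjusted p under 0.05 (14.0% of all tested genes).

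**Figure D3:**
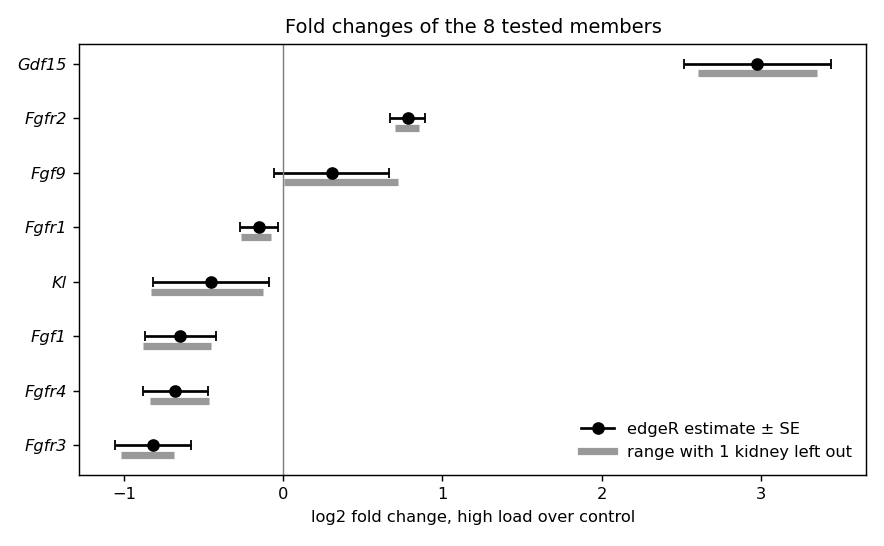
Points show the log2 fold change (high load over control) of the 8 tested genes with the SE, and grey bars show the range over 6 fits that each leave out 1 kidney. Gdf15 ranged from 2.60 to 3.35 and Fgfr2 from 0.70 to 0.85, while Kl ranged from -0.83 to -0.13.

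Among the receptors Fgfr2 was higher and Fgfr3 and Fgfr4 had lower means at high load. Fgfr2 (ENSMUSG00000030849, chromosome 7, 130162451 to 133123350, minus strand) was at 45.2, 39.6 and 46.9 CPM in high-load kidneys and at 22.8, 26.1 and 27.7 CPM in controls. The groups were well apart and each was narrow. The log2 fold change was 0.78 (SE 0.11, edgeR adjusted p 0.0790), and without high-load 2 it was 0.85 with an adjusted p of 0.0254. In the fit with no filter the adjusted p was 0.0402, and with limma-voom it was 0.117. With any other kidney left out, the edgeR adjusted p lay between 0.117 (without high-load 1) and 0.260 (without control 2). Exons of Fgfr2 share 314 bases with Ctbp2 on the same strand, and Ctbp2 had a log2 fold change of 0.08 (SE 0.08, adjusted p 0.583). The injury and macrophage sums given beside Gdf15 also separated the groups, and their part in Fgfr2 was not tested. Splice forms of the receptor cannot be separated in counts per gene.

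Fgfr3 (ENSMUSG00000054252, chromosome 5, 33721674 to 33737068, plus strand) was at 55.3, 84.9 and 63.9 CPM in high-load kidneys and at 141, 84.4 and 134 CPM in controls. Control 2 lay slightly below high-load 2, so the groups overlap at that point alone. The log2 fold change was -0.82 (SE 0.24, edgeR adjusted p 0.130), and -1.02 without control 2. Its exons overlap 998 bases of G630022F23Rik on the opposite strand. Fgfr4 (ENSMUSG00000005320, chromosome 13, 55152640 to 55168759, plus strand) was at 23.5, 37.2 and 40.7 CPM in high-load kidneys and at 53.4, 58.4 and 50.1 CPM in controls. Each high-load kidney was below each control, with a log2 fold change of -0.68 (SE 0.20, edgeR adjusted p 0.132), and -0.47 without high-load 1. Fgfr1 (ENSMUSG00000031565, chromosome 8, 25513654 to 25575718, plus strand) was at 68.4, 87.9 and 72.0 CPM in high-load kidneys and at 88.5, 78.2 and 86.8 CPM in controls. The groups overlap, and the log2 fold change was -0.15 (SE 0.12, edgeR adjusted p 0.456). Proximal tubule marker sums also separated the groups, at 3969, 11099 and 7845 CPM in high-load 1 to 3 and 13499 to 15785 CPM in controls. Within the high-load group the sum was highest in high-load 2, whereas Fgfr4 was highest in high-load 3. Of the 12 markers 8 were lower with groups that do not overlap, against 15.8% of all tested genes. The part of these markers in Fgfr4 was not tested.

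Receptors were then set side by side as CPM per kb of joined exons, a scale on which levels of different genes can be compared. The sum of the 4 receptors was 25.7, 35.1 and 32.3 CPM per kb in high-load kidneys and 45.9, 38.7 and 44.4 CPM per kb in controls. High-load sums were below each control sum, at 0.721 times the control mean (two-sided exact permutation test, p = 0.1, the smallest that 3 against 3 allows). This separation depends on the length used, and by mean length of coding transcripts the sums of high-load 2 and control 2 overlap the other group. By that length high-load 2 was above control 2 for Fgfr1 (29.4 against 26.2), Fgfr2 (15.6 against 10.3) and Fgfr3 (34.7 against 34.5). It was below control 2 for Fgfr4 (11.2 against 17.6). As a share of that sum, Fgfr2 took 17.1%, 10.9% and 14.1% in high-load kidneys and 4.81%, 6.53% and 6.05% in controls, a difference of 8.23 percentage points (exact permutation p = 0.1). The Fgfr1 share was 27.0%, 25.4% and 22.6% in high-load kidneys and 19.5%, 20.4% and 19.8% in controls (exact permutation p = 0.1). Shares of a whole are bound together, so a larger share of Fgfr1 does not mean more Fgfr1, whose CPM was no higher. Fgfr3 took 27.7% to 33.8% at high load and 30.4% to 42.8% in controls (exact permutation p = 0.2), and Fgfr4 took 25.9% to 35.6% and 31.9% to 42.6% (exact permutation p = 0.4). The ratio of Kl to Fgfr1, partners in FGF23 reception, was 2.60, 5.90 and 5.14 in high-load kidneys and 5.29, 5.56 and 6.41 in controls (exact permutation p = 0.4). Without high-load 1, a comparison added after the data were seen, the mean ratio at high load was 0.959 times the control mean, against 0.790 times with it. Shares depend on the length used: by mean length of coding transcripts Fgfr4 took 10.1% to 15.1% at high load and 13.7% to 19.8% in controls, and Fgfr2 averaged 21.7% at high load and 9.83% in controls. Adjustment over these 6 exact tests cannot lower a p below 0.1, so none could pass 0.05.

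**Figure D4:**
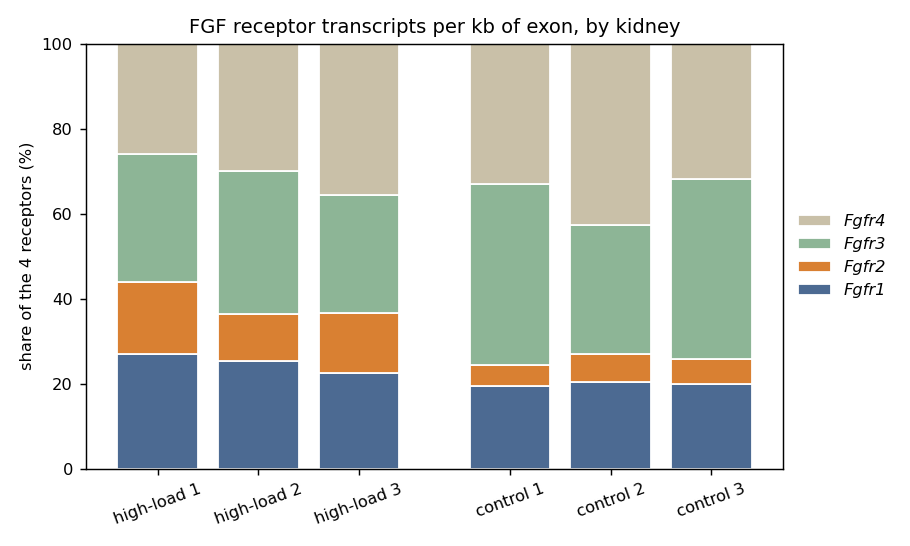
Stacked bars give each FGF receptor's percentage of the summed receptor level, in CPM per kb of joined exons, for the 3 high-load kidneys on the left and the 3 controls on the right. The Fgfr2 band spans 10.9% to 17.1% at high load and 4.81% to 6.53% in controls.

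Fgf1 (ENSMUSG00000036585, chromosome 18, 38838673 to 38929472, minus strand), a ligand that binds all FGF receptors, was at 184, 333 and 253 CPM in high-load kidneys and at 384, 373 and 447 CPM in controls. The groups do not overlap. The log2 fold change was -0.65 (SE 0.22, edgeR adjusted p 0.159), and -0.45 without high-load 1, which was the lowest kidney for Fgf1 as for Kl, Fgfr4 and the proximal tubule sum, whose part was not tested. Fgf9 (ENSMUSG00000021974, chromosome 14, 58070547 to 58112720, plus strand), needed in kidney development, was at 17.7, 24.97 and 36.1 CPM in high-load kidneys and at 15.4, 32.0 and 16.3 CPM in controls. Control 2 lay between high-load 2 and high-load 3, and the groups overlap. The log2 fold change was 0.30 (SE 0.36, edgeR adjusted p 0.633), and without 1 kidney it ran from 0.0049 (without high-load 3) to 0.72 (without control 2).

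In order of level per kb of exon, high-load kidneys held Fgf1 (47.0 ± 13.6 CPM per kb), Gdf15 (38.0 ± 20.5) and Kl (36.0 ± 17.3) at the top, and these 3 overlap one another. Fgfr4 (9.54 ± 2.56), Fgfr3 (9.50 ± 2.12) and Fgfr1 (7.71 ± 1.05) followed and also overlap. Fgf9 (5.65 ± 1.99) and Fgfr2 (4.25 ± 0.370) came next and overlap too. Fgf9, at 3.81 to 7.76 CPM per kb, also reached into the ranges of Fgfr4, Fgfr3 and Fgfr1 above it. In controls the order was Fgf1 (73.4 ± 7.30 CPM per kb), Kl (49.3 ± 6.36), Fgfr3 (16.7 ± 4.29), Fgfr4 (15.2 ± 1.18), Fgfr1 (8.56 ± 0.561), Gdf15 (4.83 ± 0.563), Fgf9 (4.57 ± 2.01) and Fgfr2 (2.47 ± 0.244). There the neighbours Fgfr3 and Fgfr4 overlap, as do Gdf15 and Fgf9, and the other neighbours do not. On this level scale Gdf15 ranked sixth in controls. Ranks depend on the length used. By the longest transcript Gdf15 averaged 45.5 CPM per kb at high load, below Kl at 57.6, and 5.79 CPM per kb in controls, below Fgf9 at 5.92. By mean length of coding transcripts Gdf15 averaged 48.1 CPM per kb at high load, again below Kl, and 6.11 CPM per kb in controls, the lowest of the 8 genes. By that length Fgfr4 was the lowest receptor at high load, with 7.08 to 12.2 CPM per kb against 15.6 to 18.4 CPM per kb for Fgfr2.

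Of the 19 other FGF ligands 7 were tested, and 7 had no read in any kidney, Fgf15 among them. FGF23 transcript, whose source is bone, had 0 reads at high load and 1 read in controls. Fgf12, an intracellular relative that is not secreted, was at 12.6, 4.34 and 11.2 CPM in high-load kidneys and at 1.78, 1.70 and 1.04 CPM in controls (log2 fold change 2.64, SE 0.46, edgeR adjusted p 0.0936). Its high-load kidneys took the same order as for Gdf15. Fgf11, of the same intracellular group, was at 9.47 ± 0.732 CPM at high load and 6.30 ± 1.02 CPM in controls (adjusted p 0.133). The secreted Fgf2 was at 11.9 ± 1.87 and 9.63 ± 0.902 CPM in high-load and control kidneys, with groups that overlap. No ligand of this list passed at 0.05, and 2 of 7 were higher and 0 lower at an unadjusted p under 0.05. For this list and those that follow, such counts are read against 14.0% higher and 10.2% lower among all tested genes.

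Adaptors and relays downstream of the receptors kept close to a fold change of 1. The median of their 19 log2 fold changes was -0.03, with 0 past 0.05, and 2 higher and 1 lower at an unadjusted p under 0.05. Gab1, a docking protein, was at 35.2 ± 2.13 CPM at high load and 43.5 ± 1.43 CPM in controls (edgeR adjusted p 0.118), and Nras was at 48.2 ± 7.58 and 35.3 ± 1.65 CPM (adjusted p 0.125). Shc1 was at 83.7 ± 3.78 CPM at high load and 73.9 ± 0.433 CPM in controls (adjusted p 0.205). Feedback inhibitors and targets gave 0 of 16 tested past 0.05, with 3 higher and 1 lower at an unadjusted p under 0.05. Dusp6, the ERK phosphatase that FGF signals induce, was at 50.4, 53.0 and 57.1 CPM in high-load kidneys and at 72.7, 57.8 and 81.5 CPM in controls (log2 fold change -0.40, SE 0.14, adjusted p 0.155). Spred3, an inhibitor of the ERK pathway, was at 11.3 ± 1.32 and 8.21 ± 0.503 CPM (adjusted p 0.143). The further gene with an unadjusted p under 0.05, named after its values were seen, was Dusp5, at 5.82 ± 2.82 and 2.70 ± 0.263 CPM in high-load and control kidneys. Lgals3, a galectin of macrophages and injured tubules rather than an FGF feedback gene, led the list at 198 ± 82.1 CPM at high load and 49.1 ± 3.71 CPM in controls (adjusted p 0.0919).

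Heparan sulfate genes, which shape FGF binding, gave 0 of 26 tested past 0.05, with 4 higher and 2 lower at an unadjusted p under 0.05. These counts are near the shares of all tested genes, 14.0% higher and 10.2% lower. The basement membrane proteoglycan gene Hspg2 was at 135 ± 14.7 CPM at high load and 105 ± 9.90 CPM in controls (edgeR adjusted p 0.149). The sulfotransferase gene Hs3st1 was at 10.6, 4.78 and 4.62 CPM in high-load kidneys and at 3.83, 2.61 and 2.40 CPM in controls (adjusted p 0.154). Sulf1, which removes sulfate groups from heparan chains, was at 15.9 ± 3.23 CPM at high load and 9.11 ± 3.01 CPM in controls (adjusted p 0.154). For each of these 3 genes, named for the smallest p of the list, the high-load kidneys were above the controls without overlap. Of the 26 genes 5 were higher and 4 lower without overlap, against 17.1% and 15.8% of all tested genes. The other 3 with an unadjusted p under 0.05, named after their values were seen, were Sdc1 as higher and Flrt1 and Ext1 as lower. High-load 1 carried much of 2 of these differences: without it the log2 fold change was 0.67 for Hs3st1, against 1.18 with it, and 0.34 for Sdc1, against 1.07 with it.

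Renal effectors of FGF23 and Klotho were lower on the median. The median of the 13 log2 fold changes was -0.44, against 0.01 for all tested genes, or -0.18 without high-load 1 and -0.68 without high-load 2. None passed at 0.05, and 1 was higher and 5 were lower at an unadjusted p under 0.05. Vdr, the vitamin D receptor gene, was at 123, 248 and 179 CPM in high-load kidneys and at 363, 329 and 304 CPM in controls (log2 fold change -0.86, SE 0.25, edgeR adjusted p 0.130). Sgk1, a kinase that serves tubule sodium transport, was at 178 ± 43.0 CPM at high load and 313 ± 11.4 CPM in controls (adjusted p 0.103). The other 3 lower genes, named after their values were seen, were Cyp24a1, Calb1 and Slc9a3r1. Cyp24a1, which breaks down active vitamin D, was at 38.3, 27.3 and 71.5 CPM in high-load kidneys and at 418, 63.1 and 209 CPM in controls (adjusted p 0.132), with groups that overlap. Its log2 fold change was -2.33, or -2.78 without control 2. Trpv5, the apical calcium channel of the distal tubule, stood out as higher, at 60.4, 45.8 and 92.2 CPM in high-load kidneys and 18.5, 19.2 and 18.03 CPM in controls (log2 fold change 1.83, SE 0.25, adjusted p 0.0784). Trpv5 is also among the 8 distal tubule markers, whose sum was not higher at high load. Several genes of this list are made in the proximal tubule, whose marker sum was lower in each high-load kidney than in each control, and its part was not tested.

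**Figure D5:**
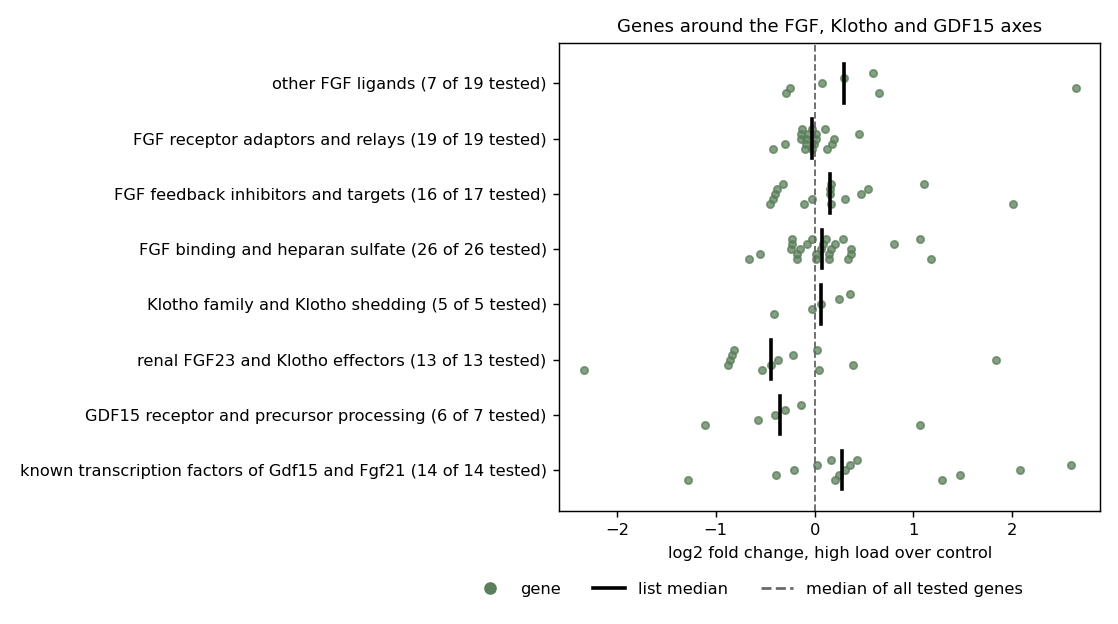
Each point is the log2 fold change (high load over control) of 1 tested gene of 8 lists around the FGF, Klotho and GDF15 axes, with a black bar at the list median and a dashed line at the median of all 15955 tested genes. Medians run from -0.44 for renal effectors of FGF23 and Klotho to 0.30 for other FGF ligands, and that of adaptors and relays was -0.03.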

How the data were processed

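Total RNA of 6 kidneys was extracted with TRIzol and sequenced as paired 150 bp reads on a DNBSEQ instrument, per the labels' protocols. The authors deposited raw counts per Ensembl gene, 1 column per kidney. Tools listed in the submitters' processing notes, with no role given, are HISAT2 2.2.1, featureCounts 2.0.1, fastp 0.23.2, SAMtools 1.11 and edgeR, on build mm10. Which annotation was counted, whether strand was used and what became of reads with several matches is not stated there, so counts of overlapping genes are uncertain. Symbols (32235 of 32285 identifiers), positions and exon lengths came from GENCODE M21, and promoters from RefSeq. A second identifier named Ddit3 had no reads and was left out.

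Groups and replicate numbers came from the sample titles. The 6 kidneys were taken as separate mice, and p-values measure the spread between them. Pairs of kidneys within a group differed by 21.4 to 100.02 times what counting alone gives, by chi-square over its degrees of freedom. Gene fits used edgeR 4.0.16 in R 4.3.3: filterByExpr with a minimum count of 10, TMM factors (0.944 to 1.14), a robust quasi-likelihood fit on group, and two-sided tests with Benjamini-Hochberg adjustment over 15955 genes at 0.05. SEs came from the F statistic. Alternatives included DESeq2 1.42.0, voom in limma 3.58.1, other scalings and filters, the replicate number as a block, load as a number, other exon lengths, and each kidney left out. On simulated counts for this comparison, 15955 genes with 50 changed at each fold, edgeR recovered 46% of 2-fold and 82% of 4-fold changes with 13 false among 128 calls, and DESeq2 64% and 88% with 64 false among 204.

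The members, gene lists, tests and alternatives were chosen with earlier results of these data known. Named genes were the 10 members, per list each called gene and the 3 with the smallest p, and the 3 nearest patterns to Gdf15 and Kl among genes with a mean of at least 1 CPM.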

Additional observations from a re-analysis of the deposited data

How the results depend on the processing

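In edgeR's main fit 3 genes were called (Atf5, Kcnk3 and S100a14, the last pair named after their values were seen), 0 of the 8 tested members and 1 gene of the 8 lists, Atf5. With no filter on low counts these were 50, 1 (Fgfr2) and 2 (Atf5 and Ddit3). With DESeq2 they were 1681, 5 and 17, and with limma-voom 0, 0 and 0. At a threshold of 0.1 they were 511, 2 (Gdf15 and Fgfr2) and 11. With mutation load as a number 10 genes were called. Leaving out each kidney gave 0 to 807 genes, 0 to 2 members and 0 to 12 list genes, with the highest of each without high-load 2. Replicate numbers did not pair the kidneys: correlations of same-numbered deviations were 0.124, -0.182 and 0.0492, and with the replicate block 1 gene, Atf5, and 0 members were called.

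Member fold changes kept their direction in each alternative, and 126 of 136 member values kept their side of the threshold. The other 10 newly passed it, 2 of them (Gdf15 and Fgfr2) because the threshold itself was moved to 0.1. No member passed in the main fit, so no call could be lost. For Gdf15 and Fgfr2 the highest adjusted p was 0.260 each, in the edgeR fit without control 2. Library totals alone put the median of all genes at 0.13 in place of 0.01, and turned the adaptor median to 0.10, below that shift. Receptor share differences kept their direction with each exon length and each kidney left out: 4.05 to 6.23 percentage points for Fgfr1, 6.71 to 9.77 for Fgfr2, -11.99 to -5.82 for Fgfr3 and -7.88 to -1.91 for Fgfr4 with 1 kidney out. At this depth Fgf21, at 0 to 3 reads a kidney, could not be compared.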
